A study of Mus musculus with 8 samples.

Results

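The genes described here are 10 components of fibroblast growth factor (FGF) signalling, chosen by symbol from the 22810 genes of an allele-resolved read count table of single mouse blastocysts. They are the ligand Fgf4, the receptors Fgfr1 and Fgfr2, the adaptor Grb2, the exchange factor Sos1, the feedback inhibitors Spry4, Spry2 and Dusp6, and the target transcription factors Etv4 and Etv5. All 10 were found in the table and all lie on autosomes.

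The study asked which genes are transcribed unequally from the maternal and paternal chromosomes in the early embryo. Each library came from 1 blastocyst at embryonic day 3.5 (E3.5), obtained by natural mating and lysed without culture. In the 3 forward embryos the mother was C57BL/6 (B6) and the father Mus musculus castaneus (cast), and in the 5 reverse embryos (numbered 1, 2, 3, 5 and 7) the mother was cast and the father B6. Every embryo was therefore an F1 hybrid with 1 B6 and 1 cast allele, and no mutation or treatment separated the groups. Reads covering a single-nucleotide polymorphism (SNP) between the strains were assigned to B6 or cast, so that the maternal allele is B6 in forward and cast in reverse embryos. The embryos were separate animals, but the sources used here do not say which shared a litter, so p-values hold for these embryos only. Those of levels measure the spread between embryos. Those of allele differences measure the spread between allele counts, because the main fit does not pair the 2 alleles of an embryo.

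FGF4 is made by the epiblast cells of the inner cell mass. It binds FGF receptors on neighbouring cells, where the docked adaptor GRB2 brings the exchange factor SOS1 to RAS and starts the RAF, MEK and ERK kinase cascade. ERK activity raises transcription of ETV4 and ETV5 and of the SPROUTY proteins and the phosphatase DUSP6, which dampen the same cascade. In the mouse blastocyst this signal directs inner cell mass cells toward primitive endoderm, and it also acts on trophectoderm.

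The blastocysts were sequenced whole, so the counts cannot be given to the inner cell mass alone. Markers of all 3 lineages were present in every embryo. The summed level of 6 epiblast markers ran from 494 to 970 CPM (the reads of a gene relative to the SNP-spanning reads of the embryo after scaling of library sizes), that of 7 primitive endoderm markers from 417 to 1649 CPM, and that of 9 trophectoderm markers from 1926 to 14710 CPM. In such bulk samples, fewer cells of a type and less RNA per cell cannot be told apart. CPM is not compared between genes, because the number of SNPs that let reads of a gene be counted is not known here.

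The embryos had 1060063 to 1632695 SNP-spanning reads each, of which 57.4 to 58.3% were B6. Reverse embryo 1 stood apart from the others. Its median correlation with the other embryos over 7162 genes was 0.658 against 0.871 to 0.908 for the rest, and it had the lowest trophectoderm (1926 CPM, others 5671 to 14710) and primitive endoderm sums (417 CPM, others 653 to 1649). The low primitive endoderm sum rests largely on Sparc (65.6 CPM there, others 301 to 1218). Col4a1, at 100 CPM, was within the range of the others (82.8 to 245). Of those 7162 genes, 33.8% had their lowest and 30.5% their highest level in this embryo. Forward embryo 1 had a summed level of 846 CPM for 8 leukocyte markers, against 41.5 and 58.8 CPM in the other forward embryos and 3.20 to 6.44 CPM in the reverse embryos. Its reads of the leukocyte genes Lyz2 (1055 maternal, 0 paternal) and C1qb (245 maternal, 0 paternal) were of maternal genotype. Markers of oocytes summed to 8.16 to 22.1 CPM, of cumulus cells to 0 to 7.37 CPM and of uterine and oviduct epithelium to 89.0 to 154 CPM. Values without these embryos are given beside several of the results.

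The proximal upstream sequences of Fgf4 and Etv5 are shown because Fgf4 had an embryo with reads of 1 allele and Etv5 had the clearest difference between strain alleles. They are the RefSeq reference (GRCm38.p6, the mm10 build), 5′ to 3′ on the strand of the gene. The Fgf4 window is the 250 bases before its RefSeq start, at chr7:144861136-144861385 on the plus strand. It lies before the start of the main transcript but inside the span of a longer Fgf4 transcript that GENCODE annotates, in none of its exons, and was not cut. The Etv5 window is the 101 bases at chr16:22439720-22439820 on the minus strand, which end before the outermost annotated start of the gene. Capitals mark a GC box (GGGCGG, searched on both strands).
Fgf4 upstream: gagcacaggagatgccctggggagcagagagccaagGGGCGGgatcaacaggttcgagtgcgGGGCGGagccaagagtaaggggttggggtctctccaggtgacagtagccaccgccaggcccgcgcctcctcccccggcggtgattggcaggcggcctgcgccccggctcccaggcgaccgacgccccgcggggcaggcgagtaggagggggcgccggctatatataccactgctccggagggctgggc
Etv5 upstream: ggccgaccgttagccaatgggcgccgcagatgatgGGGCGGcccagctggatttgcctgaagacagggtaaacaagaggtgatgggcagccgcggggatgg
The Fgf4 window held 2 GC boxes, and 32.7% of 32851 promoter windows of 250 bases held at least 1. The Etv5 window held 1, and 10.6% of the windows cut to the same 101 bases held at least 1. The ETS motif CCGGAAGT was in neither window and in 2.88% of the 250-base windows. These matches describe the reference letters only. No strain difference in these windows was read here.

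The ligand Fgf4 (chromosome 7, 144861386 to 144865245) was read from both parental alleles in 7 of 8 embryos. Maternal and paternal reads were 31 and 22, 21 and 32, and 16 and 25 in forward embryos 1, 2 and 3. In reverse embryos 1, 2, 3, 5 and 7 they were 0 and 25, 24 and 36, 42 and 41, 25 and 21, and 27 and 18. Reverse embryo 1 thus had no maternal read among 25, a paternal share of 100% (95% Wilson interval 86.7 to 100%), and a count of 0 among 25 allows a maternal share of up to 12.0%. In the other 7 embryos the paternal share lay between 40.0 and 61.0%. Intervals and such limits cover counting error only, since reads without molecular identifiers are not independent molecules.

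The paternal share of Fgf4 was 54.3% ± 11.1 (SD, n = 3) in forward and 59.0% ± 24.0 (n = 5) in reverse embryos, and 48.8% ± 8.43 (n = 4) in reverse embryos without embryo 1. A pattern of this kind (at least 20 reads, 1 allele at 0 in exactly 1 embryo, a minor allele of at least 30% in at least 5 others) was found in 28 of 6574 genes, or 0.426%. Of these, 21 had their silent allele in reverse embryo 1. The criteria were set after the Fgf4 values had been seen. The same embryo had the lowest Fgf4 level, 15.1 CPM, against 34.4 to 66.8 CPM in the other reverse embryos and 32.6 to 46.8 CPM in forward embryos. Its epiblast marker sum, 726 CPM, was within the range of the others, while its correlation with other embryos was low. The part of either in the Fgf4 result was not tested.

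**Figure D1:**
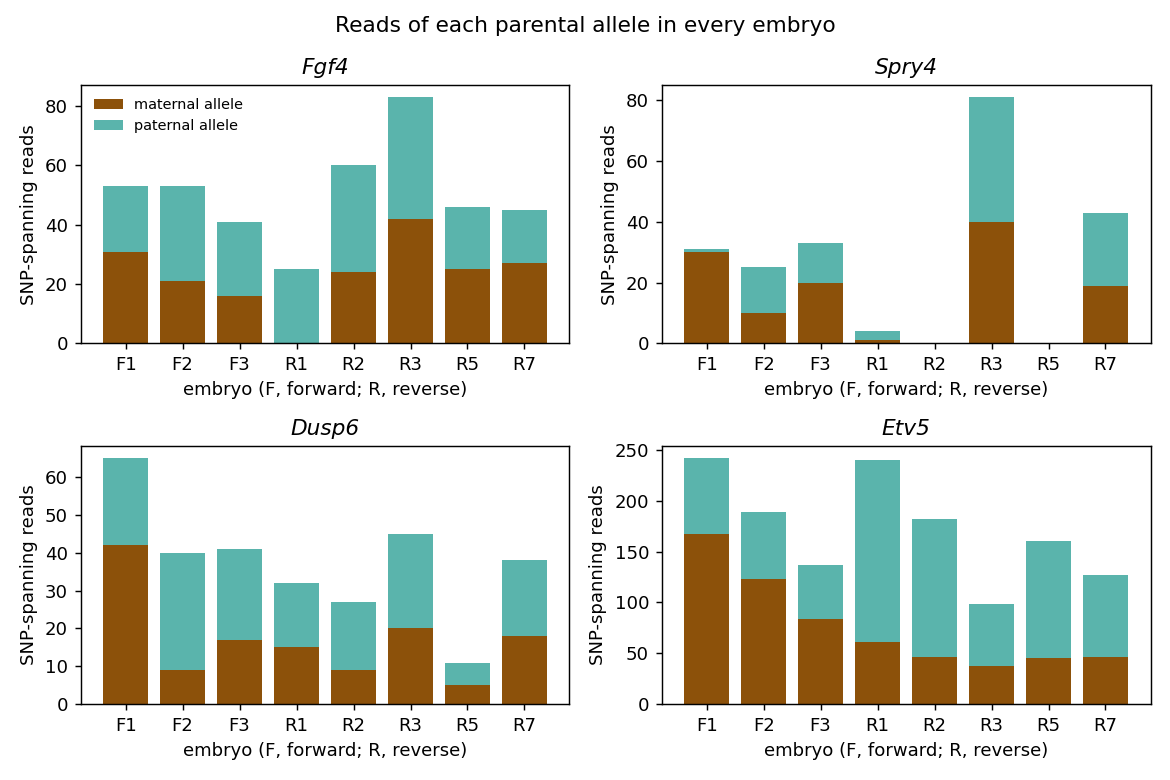
SNP-spanning reads (y axis) of Fgf4, Spry4, Dusp6 and Etv5 in each embryo (x axis; F1 to F3 forward, R1 to R7 reverse), as stacked bars of maternal and paternal reads. Fgf4 in reverse embryo 1 has paternal reads only, 25 of them, Spry4 in forward embryo 1 has 30 maternal reads and 1 paternal read, and Etv5 changes its major parent with the cross.

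The genes whose level followed that of Fgf4 most closely were Srp14 (Pearson r = 0.976), Pigs (0.974) and Mesdc2 (0.973), out of 7161 genes compared by log2 CPM over the 8 embryos. All 3 were, like Fgf4, lowest in reverse embryo 1 and highest in reverse embryo 3. That order was common, as 996 of 7162 genes (13.9%) had it. The correlations share 8 libraries and are given as a description.

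Receptor transcripts came from both alleles in every embryo. Maternal and paternal reads of Fgfr2 (chromosome 7, 130162451 to 130266808) were 244 and 276, 184 and 206, and 152 and 180 in forward embryos. In reverse embryos they were 275 and 467, 141 and 148, 152 and 129, 173 and 189, and 135 and 159. The paternal count was the higher in 7 of 8 embryos, the exception being reverse embryo 3.

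The paternal share of Fgfr2 was 53.4% ± 0.743 (n = 3) in forward and 53.3% ± 6.20 (n = 5) in reverse embryos. The median gene of 5609 with at least 20 reads in every embryo had 44.9% in forward and 55.3% in reverse embryos. Without reverse embryo 1, in which the share was 62.9%, the reverse mean was 50.9% ± 3.5 (n = 4). The level of Fgfr2 was 312 CPM ± 37.4 (n = 3) in forward and 282 CPM ± 99.7 (n = 5) in reverse embryos, from 185 CPM in reverse embryo 2 to 447 CPM in reverse embryo 1, and the groups overlapped.

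Fgfr1 (chromosome 8, 25518759 to 25575718) had 142 and 136, 95 and 100, and 112 and 135 maternal and paternal reads in forward embryos. Reverse embryos had 105 and 242, 138 and 92, 94 and 95, 94 and 122, and 101 and 59. The forward embryos were close to even, with a paternal share of 51.6% ± 2.88 (n = 3), while the reverse embryos ranged from 36.9% in embryo 7 to 69.7% in embryo 1.

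The shares of Fgfr1 spread widely among reverse embryos. The chi-square of allele counts across embryos, divided by its degrees of freedom, was 18.2 in reverse embryos, and 6.53 without embryo 1. The median of the 5609 genes was 4.12 with embryo 1 included, and no median without it is given here. In forward embryos the value for Fgfr1 was 0.864 against a median of 2.31. This measure grows with the number of reads, so it is not ranked across genes. The level of Fgfr1 varied little, with a coefficient of variation (CV) of 13.4% over 8 embryos against a median of 33.4%, and was highest in reverse embryo 1 (209 CPM, others 147 to 202). Fgfr1 overlaps the genes Gm16159 and Gm31288, and whether strand was used in counting is not stated.

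The adaptor Grb2 (chromosome 11, 115644045 to 115708597) had 15 SNP-spanning reads in all, 1 to 5 in each embryo, and passed no filter. With 5 maternal and 10 paternal reads, its allele balance could not be assessed at this depth. A low count here reflects only reads over SNPs, and is no statement on the amount of Grb2 transcript.

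The exchange factor Sos1 (chromosome 17, 80393752 to 80480453) had 64 and 64, 28 and 36, and 37 and 34 maternal and paternal reads in forward embryos. In reverse embryos it had 140 and 83, 39 and 44, 36 and 17, 52 and 41, and 27 and 23. The cast allele was the higher in 5 of 8 embryos and the B6 allele in 2, with 428 cast reads and 337 B6 reads in all. The level of Sos1 was 134 CPM in reverse embryo 1 and 42.7 to 78.7 CPM in the others, a CV of 43.3%. Sos1 overlaps Arhgef33 on the other strand.

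The levels of the feedback inhibitors varied most for Spry4 (chromosome 18, 38586247 to 38601347), which inhibits signalling upstream of ERK. Forward embryos had 19.05, 22.1 and 26.9 CPM, while reverse embryos 1, 2, 3, 5 and 7 had 2.41, 0, 65.2, 0 and 41.4 CPM. The forward embryos lay within 1 narrow range, and the reverse embryos lay on both sides of it, with CVs of 17.5 and 138%. With 0 reads in reverse embryos 2 and 5, a level of up to 1.88 and 2.25 CPM is allowed by a floor of 3 reads per embryo. The reads of both embryos were of ordinary number, 1598543 and 1331953.

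Allele shares of Spry4 could be given in the 5 embryos with at least 10 reads. Maternal and paternal reads were 30 and 1, 10 and 15, and 20 and 13 in forward embryos. Reverse embryo 3 had 40 and 41, and reverse embryo 7 had 19 and 24. The paternal share in forward embryo 1 was 3.23% (Wilson interval 0.572 to 16.2%), and in the other 4 embryos it was 39.4 to 60.0%. This is the embryo with a leukocyte marker sum of 846 CPM, in which Lyz2 and C1qb had maternal reads only. The part of leukocytes in the maternal reads of Spry4 was not tested.

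Spry2 (chromosome 14, 105891947 to 105896819), of the same family, showed neither feature. Its maternal and paternal reads were 11 and 13, 15 and 16, and 15 and 9 in forward embryos, and 18 and 15, 10 and 8, 10 and 16, 15 and 17, and 8 and 16 in reverse embryos. Both alleles were read in all 8 embryos, and the level was 20.6 CPM ± 6.38 (n = 3) in forward and 19.9 CPM ± 4.93 (n = 5) in reverse embryos. The chi-square of its shares per degree of freedom was 0.794 and 0.947, near that of counting error.

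Dusp6 (chromosome 10, 99263231 to 99267489), a phosphatase that inactivates ERK, had 42 and 23, 9 and 31, and 17 and 24 maternal and paternal reads in forward embryos. Reverse embryos had 15 and 17, 9 and 18, 20 and 25, 5 and 6, and 18 and 20. The paternal count was the higher in 7 of 8 embryos and the maternal in forward embryo 1 only. The paternal allele is B6 in reverse embryos, where Dusp6 had a mean paternal share of 56.5% and the median of the 5609 genes was 55.3%. In forward embryos these were 57.1 and 44.9%. Forward paternal shares ran from 35.4 to 77.5%, with a chi-square per degree of freedom of 9.12 (3.34 without forward embryo 1), and reverse shares from 52.6 to 66.7%, with 0.385. The level of Dusp6 was 36.2 CPM ± 3.34 (n = 3) in forward and 23.5 CPM ± 12.5 (n = 5) in reverse embryos, with 8.21 CPM in embryo 5. Dusp6 overlaps Gm34921.

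**Figure D2:**
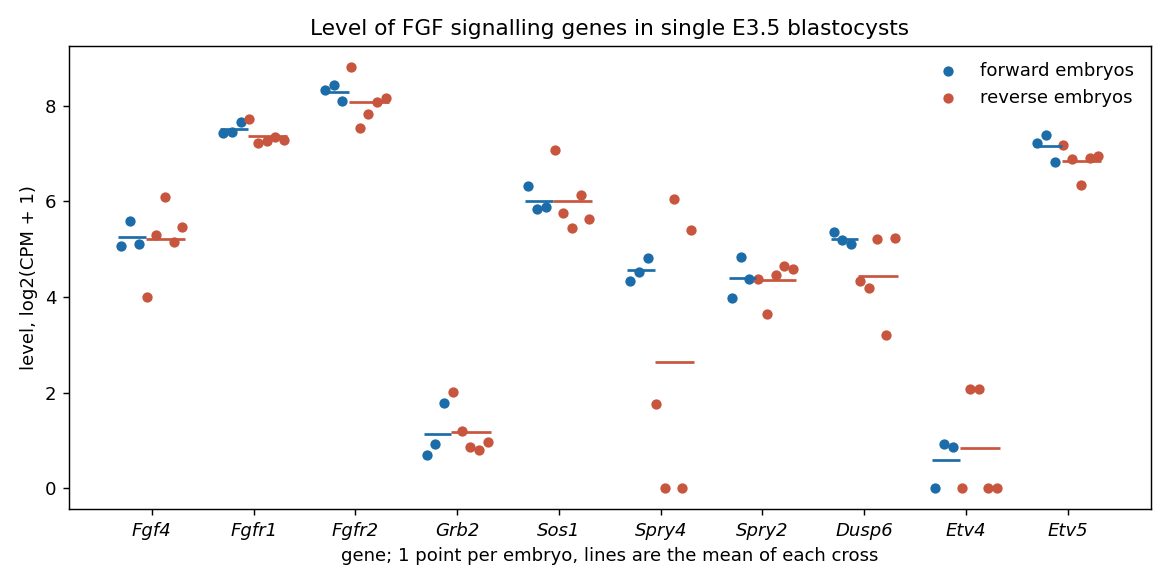
Level of each of the 10 genes as log2(CPM + 1) (y axis) by gene (x axis), 1 point per embryo, with forward and reverse embryos in separate colours and a line at the mean of each cross. Spry4 spreads widest among reverse embryos, from 0 to 65.2 CPM, and in every gene the forward and reverse points overlap. Heights are not comparable between genes.

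Of the target transcription factors, Etv4 (chromosome 11, 101769747 to 101785310) had 11 reads in 4 of 8 embryos and was not tested. Etv5 (chromosome 16, 22381313 to 22439570) had more B6 than cast reads in all 8 embryos. B6 and cast reads were 167 and 75, 123 and 66, and 84 and 53 in forward embryos, and 179 and 61, 136 and 46, 61 and 38, 115 and 45, and 81 and 46 in reverse embryos. The B6 share was 67.7% ± 5.55 (n = 8), 65.1% ± 3.85 where B6 was maternal (n = 3) and 69.3% ± 6.19 where it was paternal (n = 5). The larger share therefore followed the strain and not the parent.

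**Figure D3:**
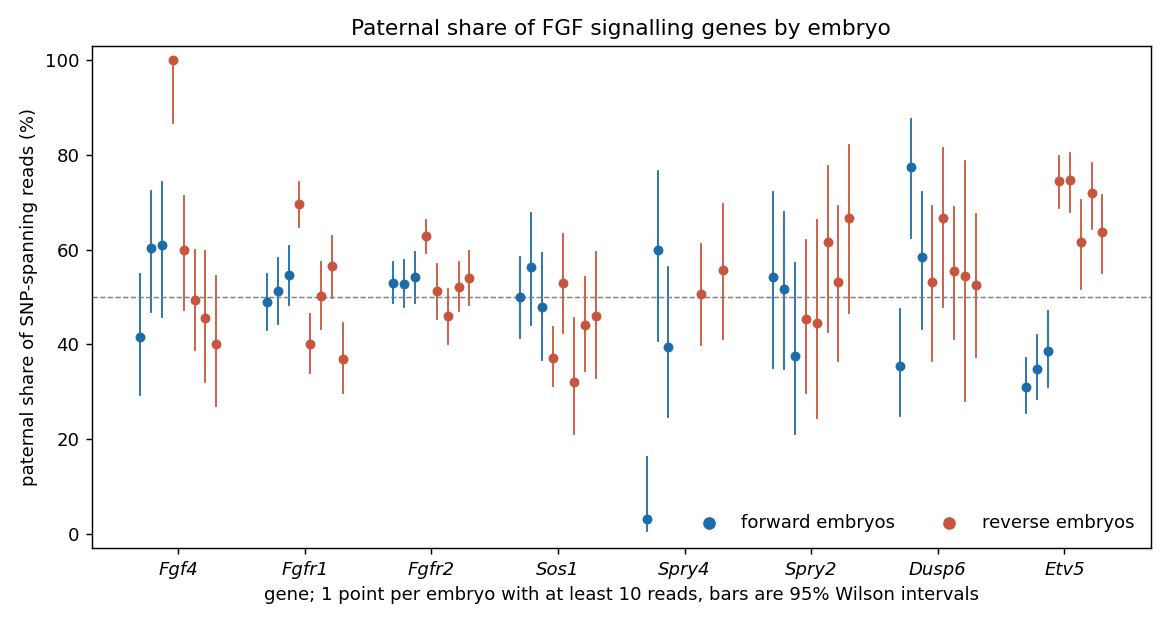
Paternal share of SNP-spanning reads in percent (y axis) for the 8 genes with at least 10 reads in some embryo (x axis), 1 point per embryo with at least 10 reads, with 95% Wilson intervals and a dashed line at 50%. Etv5 lies below the line in all 3 forward embryos and above it in all 5 reverse embryos, and the points of Fgf4 at 100% and Spry4 at 3.23% are single embryos.

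Maternal and paternal alleles were compared across all 16 allele libraries (2 per embryo), with the strain of the allele in the model (edgeR's two-sided quasi-likelihood test, Benjamini-Hochberg adjustment over 12566 autosomal genes, adjusted p of at most 0.1). The model had no term for the embryo, which was added as an alternative. Of the 8 genes tested, 0 were called, against 1.42% of all genes tested (1.11% higher and 0.31% lower from the paternal allele). At an unadjusted p of 0.05, 0 of the 8 passed, and DESeq2 called 0. The estimates, as log2 of paternal over maternal, ran from -0.35 for Spry4 to 0.32 for Dusp6, with a median of 0.11 against -0.01 for all genes tested. Single embryos moved several of them. The Dusp6 estimate was 0.71 without forward embryo 1 and 0.041 without forward embryo 2, and that of Fgf4 was 0.38 without forward embryo 1, 0.12 without forward embryo 2 and 0.10 without reverse embryo 1. Without reverse embryo 1 the estimates of Fgfr2 and Sos1 were 0.12 and -0.13, against 0.21 and -0.24 with it. None of these was called.

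The interval of each estimate shows how large a difference the reads leave possible. The 95% interval was -0.39 to 0.58 for Fgfr1, -0.29 to 0.72 for Fgfr2 and -0.36 to 0.60 for Etv5. It was wider for Fgf4, at -0.78 to 1.21, for Sos1, at -0.91 to 0.43, for Spry2, at -0.71 to 0.85, and for Dusp6, at -0.55 to 1.19. For Spry4 it ran from -2.28 to 1.59, so that a 2-fold difference in either direction was not excluded. For Fgf4 and Dusp6 a 2-fold excess of the paternal allele was not excluded. The estimate for Fgfr1 turned to -0.065 without reverse embryo 1, and that of Spry4 to 0.042 without forward embryo 1.

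A difference of 2-fold or more (a log2 margin of 1) was then tested against. With edgeR's quasi-likelihood test run against each side of the margin, 5 of 8 genes were called equivalent, against 35.4% of all genes tested. They were Fgfr1 (adjusted p = 0.0171), Etv5 (0.0172), Fgfr2 (0.0237), Spry2 (0.0509) and Sos1 (0.0574). Fgf4 (adjusted p = 0.141), Dusp6 (0.145) and Spry4 (0.373) were not. Fgf4 was called by DESeq2 (adjusted p = 0.0832). Where every embryo needed 10 reads, both Fgf4 (adjusted p = 0.0808) and Dusp6 (0.0771) were called by edgeR. Spry4 did not pass that filter, and all 7 others were called under it, as were 5590 of all 7162 genes tested. Without reverse embryo 1 the adjusted p of Fgf4 by edgeR was 0.0150 and 6 of the 8 genes were called, against 5657 of all 11933 tested. Without forward embryo 2 or forward embryo 3 only 3 of the 8 were called, as Sos1 and Spry2 were lost. Of all genes tested, 1832 of 12499 and 1642 of 12486 were called in these 2 settings. At a margin of 1.5-fold 0 of the 8 genes were called, with 2 at an unadjusted p of 0.05. At that margin 0 of all 12566 genes tested were called, so it does not set these genes apart.

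The strain alleles were compared in the same fit. Etv5 was the 1 gene of 8 called, against 15.4% of all genes tested, with a log2 of cast over B6 of -0.73 (SE 0.23, adjusted p = 0.0450, edgeR's quasi-likelihood test), where the lower cast reads were seen in 8 of 8 embryos. Toward B6, 10.9% of all genes tested were called, and toward cast 4.48%. Sos1 had 0.63 (SE 0.32, adjusted p = 0.246), Fgf4 0.39, Dusp6 0.35, Fgfr1 0.33, Fgfr2 0.30, Spry2 0.12 and Spry4 -0.20, none of them called.

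The Etv5 call was near the threshold, with an adjusted p between 0.00452 and 0.174 over the alternatives. The estimate stayed between -1.09 and -0.67, but the call was lost without forward embryo 1, forward embryo 2, reverse embryo 2 or reverse embryo 5. With the 2 alleles of an embryo paired by a block term, 3 genes were called: Etv5, Fgfr2 (0.34, adjusted p = 0.0632 by edgeR) and Sos1 (0.60, 0.0677). Without reverse embryo 1, Fgfr1 was called as well as Etv5 (0.49, adjusted p = 0.0873 by edgeR). With 1 library size per embryo, which leaves the excess of B6 reads in place, the median of all genes moved from -0.06 to -0.40, and the estimates of Fgfr1, Fgfr2 and Spry2 changed sign.

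**Figure D4:**
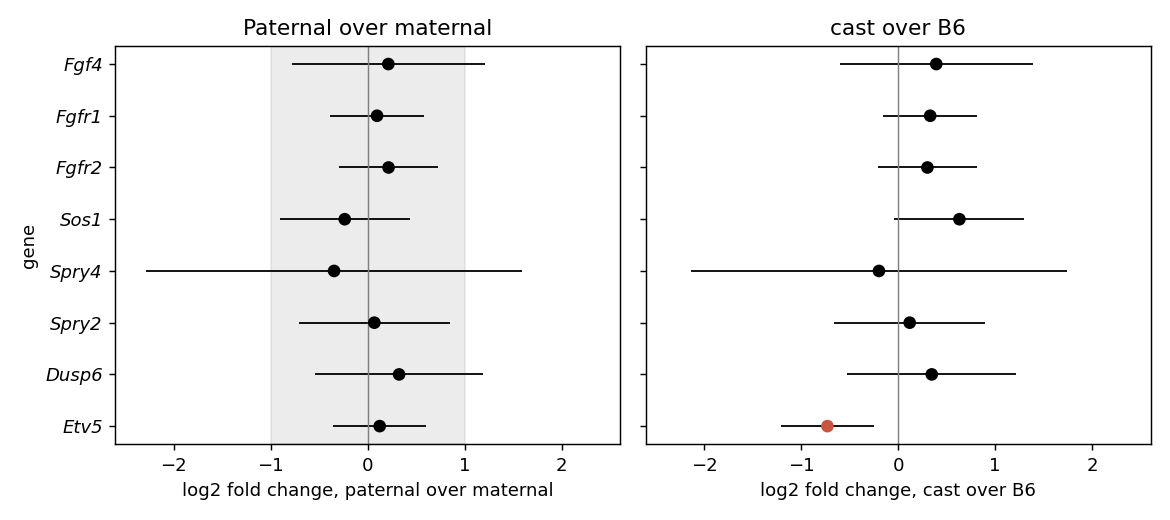
Log2 fold change of paternal over maternal (left) and of cast over B6 (right) on the x axes for the 8 tested genes, with 95% confidence intervals from edgeR; the grey band marks the log2 margin of 1 and red a gene with an adjusted p of at most 0.1. All 8 parental intervals include 0, and on the right the interval of Etv5, at -0.73, does not.

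The levels in forward and reverse embryos were compared on the sum of both alleles in each embryo. Of the 8 genes tested, 0 were called, against 0.0668% of 10484 genes (0.0286% higher and 0.0382% lower in forward embryos, edgeR's quasi-likelihood test). Of the 8, 0 passed an unadjusted p of 0.05 and DESeq2 called 0. The log2 of forward over reverse was 0.61 for Dusp6 (SE 0.47, adjusted p = 0.802), 0.27 for Etv5 (SE 0.29), 0.12 for Fgfr1 (SE 0.27) and 0.11 for Fgfr2 (SE 0.33). It was -0.14 for Sos1 (SE 0.41), -0.086 for Fgf4 (SE 0.44), 0.027 for Spry2 (SE 0.44) and 0.065 for Spry4 (SE 1.19). The levels of forward and reverse embryos overlapped in all 8 genes.

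The pathway was followed further with a list of 78 other FGF pathway genes in 6 role groups, of which 66 were in the table and 47 could be tested for both alleles. By parent, 1 of the 47 was called: Gab1, a docking protein that links receptors to the RAS and PI3-kinase branches. It was called in the paternal direction, as were 1.11% of all genes tested. The median log2 of paternal over maternal of the 47 genes was 0.01 against -0.01 for all genes tested.

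Gab1 (chromosome 8, 80764431 to 80880519) had 59 maternal and 2019 paternal reads. Maternal and paternal reads were 34 and 270, 15 and 184, and 2 and 250 in forward embryos, and 0 and 420, 4 and 264, 0 and 161, 3 and 272, and 1 and 198 in reverse embryos. The paternal share was 93.5% ± 5.27 (n = 3) in forward and 99.4% ± 0.664 (n = 5) in reverse embryos, higher in 8 of 8. The log2 of paternal over maternal was 5.20 (SE 0.54, adjusted p = 1.73e-06 by edgeR). It lay between 4.91 and 5.81 when 1 embryo was left out, and Gab1 was called under every alternative. Most maternal reads were in forward embryos 1 and 2, and forward embryo 1 had the high leukocyte marker sum, whose part in them was not tested. Gab1 overlaps Gm51580 and Gm7997.

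**Figure D5:**
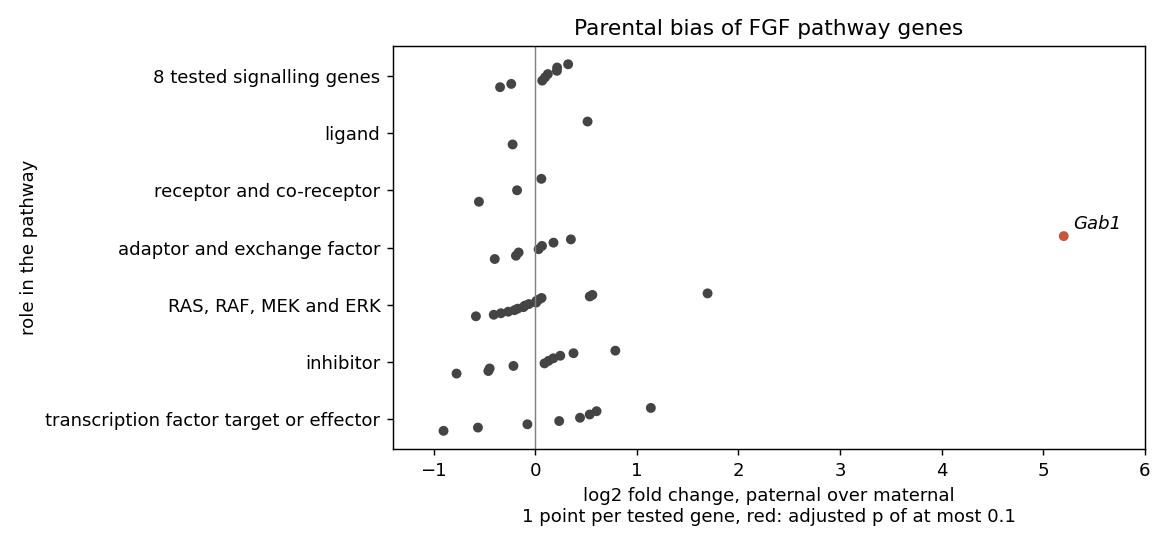
Log2 fold change of paternal over maternal (x axis) for the 8 tested genes and the 47 other tested FGF pathway genes, by role group (y axis), 1 point per gene, with red for an adjusted p of at most 0.1. Gab1 stands at 5.20 while the 8 genes lie between -0.35 and 0.32.

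By strain, 9 of the 47 other pathway genes were called, 5 toward cast and 4 toward B6, where 15.4% of all genes tested were called, 4.48% toward cast and 10.9% toward B6. Among those with the smallest adjusted p (edgeR's quasi-likelihood test) were Fosl1, an ERK-responsive AP-1 factor (86 B6 and 2 cast reads, log2 of cast over B6 -4.50, adjusted p = 6.77e-04), Klb, a co-receptor for endocrine FGFs (60 and 309 reads, 2.74, 8.18e-04) and the MEK kinase gene Map2k1 (1150 and 559 reads, -0.72, 0.0602). With 2 cast reads, the value for Fosl1 depends on the small count added in the fit, and Fosl1 passed the filter only through B6 libraries. Fgf1 (44 B6 reads and 1 cast read, log2 -3.93) was also called, but it passed the filter in the same way, and without forward embryo 1 or 2 its call was lost (adjusted p = 0.125 and 0.146 by edgeR). Klb had more cast reads, and Fosl1 and Map2k1 more B6 reads, in 8 of 8 embryos. The count moved to 15 with a term for each embryo, to 4 where every embryo needed 10 reads, and to between 3 and 10 when 1 embryo was left out. It was lowest, at 3, without forward embryo 1 or 2.

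The genes of each role group with the most reads were Fgf10, Klb, Gab1, Rps6ka1, Spred2 and Phlda1. Fgf10, a ligand, had 1167 maternal and 921 paternal reads, a log2 of -0.22 that was not called by parent. The SPRED-family inhibitor Spred2 had 1049 and 1372 reads (0.38) and the ERK-pathway target Phlda1 155 and 258 reads (0.60), and neither was called. The kinase gene Rps6ka1 had 1349 and 1265 reads (0.01 by parent) and was among the genes called by strain, at 0.66 toward cast. Equivalence within the log2 margin of 1 was called for 15 of the 47, against 35.4% of all genes tested, while 0 of 41 were called for level between forward and reverse embryos by edgeR or DESeq2, with 1, Kl, at an unadjusted p of 0.05.

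Markers of the embryonic lineages were read from both parents. None of the 5 epiblast, 6 primitive endoderm and 9 trophectoderm markers tested was called by parent by edgeR or DESeq2, and 0 passed an unadjusted p of 0.05. By strain, 4 of these 20 markers were called by edgeR, all toward B6, against 15.4% of all genes tested called by strain and 10.9% toward B6. They were the epiblast gene Tdgf1 (4456 B6 and 961 cast reads, log2 -1.91), the primitive endoderm gene Sparc (4455 and 1055 reads, -1.82) and the trophectoderm genes Krt8 (15200 and 3649 reads, -1.72) and Id2 (650 and 296 reads, -0.79). DESeq2 called these 4 and the trophectoderm gene Tfap2c. The other most-read markers of these lists, Esrrb (784 and 760 B6 and cast reads), Col4a1 (852 and 800) and Tspan8 (23349 and 13516), were not called. Of the other lists, 2 of 5 leukocyte markers, Lyz2 and C1qb, were called maternal and toward B6 by edgeR, and Lyz2 also higher in forward embryos. Both passed the filter only in maternal libraries of forward embryos, which hold the B6 allele. Their calls by parent and by strain therefore cannot be told apart. Among all genes tested, 0.31% were called toward the maternal allele and 10.9% toward B6. DESeq2 called C1qb and gave no adjusted p for Lyz2. Without forward embryo 1 neither was called by parent (adjusted p = 0.270 for Lyz2 and 0.187 for C1qb by edgeR), and by strain C1qb was called (0.0179) and Lyz2 was not (0.521). Of 3 uterine and oviduct markers, Wfdc2 was called toward cast by both tools. Ovgp1 was called toward B6 by edgeR only, on 17 B6 reads and 0 cast reads, and passed the filter only through its B6 reads in forward embryo 1. The most-read uterine marker after Wfdc2 was Muc1, with 126 maternal and 105 paternal reads. Of the 3 oocyte markers 0 were called by edgeR or DESeq2, with 1 (Oas1d, 39 maternal and 3 paternal reads) at an unadjusted p of 0.05 by parent, and Zp2 had 47 and 8 reads. Cumulus markers were too low to be tested, with 10 reads of Tnfaip6 and 5 of Inhba as the highest.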

How the data were processed

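RNA of single E3.5 blastocysts was amplified by SMART-Seq2 and sequenced. Per the methods of the study, the authors aligned reads with STAR (version 2.5.2b in the submitters' processing notes, a different release in the methods) to mm10, dropped multimapping reads, and deposited, for each gene, the counts of reads over SNPs by embryo and strain allele, from an intermediate of Allelome.Pro. Samples 4 and 6 had been removed by the authors. These counts are not normalized, and strandedness is not stated. The column name gave cross, embryo and strain.

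Genes were placed with GENCODE M21 (18286 by symbol) and RefSeq (2999 by symbol, 417 by synonym), which left 1108 genes without a chromosome (0.809% of reads). Those and 645 X-linked genes were left out of tests. Counts were tested in R 4.3.3 with edgeR 4.0.16 (quasi-likelihood, TMM, strain and parent as terms, a minimum of 10 reads in 1 or more allele libraries). The comparison of crosses used genes with at least 10 reads in at least 3 embryos. An adjusted p of at most 0.1 was called. CPM used a prior count of 2 only for correlations. Shares have 95% Wilson intervals, and the floor is 3 reads. Depth was 1060063 to 1632695 reads per embryo. The scripts were tested on simulated data.

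Alternatives were DESeq2 1.42.0, RLE size factors, 1 library size per embryo, no filter, 10 reads in every embryo, a term for each embryo, an equivalence margin of 1.5-fold, and the omission of each embryo in turn. The pairing of alleles comes from the shared embryo. Deviations of maternal and paternal alleles of an embryo correlated at 0.132 to 0.676.

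The 10 genes, the pathway list and the marker lists were chosen with earlier results of these data known. Named besides the 10 are pathway genes past a threshold (at most the 5 with the smallest adjusted p per comparison), the gene of each role group with the most reads, marker genes past a threshold, the 2 most-read genes of each marker list, and the 3 genes most correlated with Fgf4. The result of 1 gene that this rule names is not reported here. Gene positions are from RefSeq, since the GENCODE span of Fgfr2 runs over neighbouring genes. No promoter entry of Fgfr1, Spry4 or Etv4 was used here.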

Additional observations from a re-analysis of the deposited data

Results flagged for a closer look

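In the 5 reverse embryos, 17 sets of levels or shares of the 10 genes were examined for a single embryo far from the rest. By Dixon's criterion 3 were so flagged, which chance does in about 1 of 20 sets. The forward embryos were not examined in this way. The level of Fgfr1 in reverse embryo 1, 209 CPM, lay apart from the other 4 reverse embryos at 147 to 161 CPM. The level of Grb2 in reverse embryo 1, 3.01 CPM, lay apart from values of 0.747 to 1.28 CPM, and rests on 5 reads. The paternal share of Dusp6 in reverse embryo 2, 66.7%, lay apart from 52.6 to 55.6% in the others, and rests on 27 reads. The first 2 are values of the embryo that stood apart in the whole data set.

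The paternal share of Etv5 differed between forward and reverse embryos. This restates the strain difference given above, a log2 of cast over B6 of -0.73 (edgeR's quasi-likelihood test, adjusted p = 0.0450). The model has no term for a parental effect that differs between crosses. The paternal share was 34.9% ± 3.85 (n = 3) in forward and 69.3% ± 6.19 (n = 5) in reverse embryos.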

How the results depend on the processing

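The parental and cross comparisons called 0 of the 8 genes under every alternative run. By strain, the 1 gene called became 0 with no filter, 3 with the replicate block that pairs the alleles of an embryo, and 0 to 2 when 1 embryo was left out. By equivalence, the 5 genes called became 0 at a margin of 1.5-fold, where 0 of all 12566 genes were called. With 1 embryo left out they became 3 to 6, while the calls over all genes ran from 1642 to 5657. The block changed no other call among the 8 genes. Estimates that changed sign, none of them called, were those by strain with 1 library size per embryo (Fgfr1 -0.029, Fgfr2 -0.060, Spry2 -0.20) and the cross estimate of Fgf4 with embryo numbers as a replicate block (0.087). With 1 embryo left out, parental estimates ranged from -0.065 to 0.19 (Fgfr1), -0.027 to 0.21 (Spry2) and -0.72 to 0.042 (Spry4), the strain estimate of Spry4 from -0.59 to 0.19, and cross estimates from -0.30 to 0.19 (Fgf4), -0.022 to 0.36 (Fgfr2), -0.31 to 0.26 (Sos1), -0.24 to 0.23 (Spry2) and -0.29 to 1.10 (Spry4). The cause was not tested. Forward and reverse embryos of the same number correlated at 0.228, 0.0150 and 0.231 in their deviations, so the numbers do not pair them.

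Over all genes, the parental comparison called 178 genes, against 391 with the block, 406 with no filter and 75 where every embryo needed 10 reads. The strain comparison called 1935 genes, 70.9% toward B6, against 2576 (87.4% toward B6) with 1 library size per embryo, 3212 with the block (61.3%) and 1064 where every embryo needed 10 reads (66.0%). For the 47 other pathway genes the settings were applied after their values were seen, and the block called 2 by parent, Gab1 and Errfi1. Depth limited Grb2 and Etv4, which could not be tested.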

Other observations

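The levels of the ligand Fgf4 and of its receptor Fgfr2 were set against each other over the 8 embryos. This pair was chosen after the values had been seen. The relation is 1 of the many between Fgf4 and other genes described above, and its p-values are not adjusted for them. Pearson's r was -0.65 (exact permutation p = 0.0782) and Spearman's rho -0.43 (exact permutation p = 0.299). Without reverse embryos 1 and 3, the 2 farthest from the median of Fgf4, r was 0.17 and rho 0.20 (n = 6), so the pooled value rests on those embryos. Neither cross holds 6 embryos, so no value within a cross is given.

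Of the 10 genes, Fgfr1, Fgfr2, Grb2 and Sos1 had their highest level in reverse embryo 1, and Fgf4 its lowest. Fgf4, Spry4 and Etv4, the last with 4 reads there, were highest in reverse embryo 3, the embryo with the highest trophectoderm marker sum (14710 CPM). That sum rests mostly on Tspan8, at 9910 CPM. Krt8, at 2157 CPM, was within the range of the other embryos (275 to 2452 CPM). Over the 7162 genes with at least 10 reads in every embryo, 30.5% were highest and 33.8% lowest in reverse embryo 1, and 20.7% were highest in reverse embryo 3. Grb2, Spry4 and Etv4 are not among those genes.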
